A study of Mus musculus with 6 samples.

Results

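The Rbp4 and Mfap4 fibroblasts of the mouse mitral valve are 455 cells, 1.31% of 34660 fibroblast barcodes, chosen by their counts of unique molecular identifiers (UMIs). A fibroblast barcode had at least 300 genes, at most 10% mitochondrial UMIs, at least 1% of its UMIs from Dcn, Col1a1 and Col1a2, and no UMI of Ptprc or Pecam1. A selected cell also had at least 2 UMIs of Rbp4 and at least 5 of Mfap4, under 3 of Pi16, at most 1 of Wif1, none of Chad, under 4 of Cilp, Thbs4 and Col8a1 together, under 5 of Mmp3 and Lcn2 together, and under 5 of Igfbp3. The cells came from 6 droplet libraries of live sorted valve cells, 1 library for each of 2 genotypes at 3, 8 and 25 weeks of age. K/B.g7 mice carry KRN, a transgenic T cell receptor, together with the MHC class II molecule Ag7, and develop autoantibody-driven arthritis and inflammation of the heart valves. B.g7 mice carry the same class II allele without the transgene and served as the uninflamed controls. Neither the number nor the sex of the mice behind a library is in the labels, and every p-value therefore reflects only how the libraries spread, which may be technical.

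Fibroblasts of the valve, the valve interstitial cells, make and maintain the layered collagen, elastin and proteoglycan matrix of the leaflet. In the weeks after birth they produce this matrix at a high rate and still divide, and in the adult most are quiescent. Rbp4 is the carrier that transports retinol, Mfap4 is a microfibril-associated glycoprotein that binds elastin and collagen, and Igf1 is a secreted growth factor whose access to its receptor is set by IGF-binding proteins. Their genes lie at chr19:38116629-38125281 (Rbp4, minus strand), chr11:61485431-61488900 (Mfap4, plus strand) and chr10:87858265-87937042 (Igf1, plus strand) of mm10.

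At 3, 8 and 25 weeks the selected cells numbered 197, 24 and 62 in K/B.g7 against 75, 29 and 68 in B.g7, and 272 of the 455 (59.8%) came from the 3-week libraries. They made up 5.10% of K/B.g7 fibroblasts at 3 weeks (exact 95% binomial interval 4.42 to 5.84%), 0.416% at 8 weeks (0.267 to 0.618%) and 0.458% at 25 weeks (0.351 to 0.587%). In B.g7 they made up 2.72% (2.14 to 3.39%), 0.997% (0.669 to 1.43%) and 1.17% (0.909 to 1.48%). The share was thus highest at 3 weeks in both genotypes. The interval of the K/B.g7 library lay above that of the B.g7 library at 3 weeks and below it at 8 and 25 weeks. With 1 library a group these differences have no replicate, the intervals cover counting error only, and the shares follow from the genes of the rule.

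The shares moved with counting depth, least in K/B.g7 at 3 weeks. Selected cells held a median of 3429 (K/B.g7, 25 weeks) to 5888 UMIs (B.g7, 25 weeks), and the other fibroblasts 2989 to 5873 in the same libraries. With every fibroblast thinned to 1500 UMIs the shares were 4.78%, 0.0187% and 0.157% for K/B.g7 at the 3 ages and 1.33%, 0.121% and 0.354% for B.g7. The value of 0.0187% is 1 cell of 5349. The 3-week libraries stayed highest within each genotype after thinning.

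**Figure D1:**
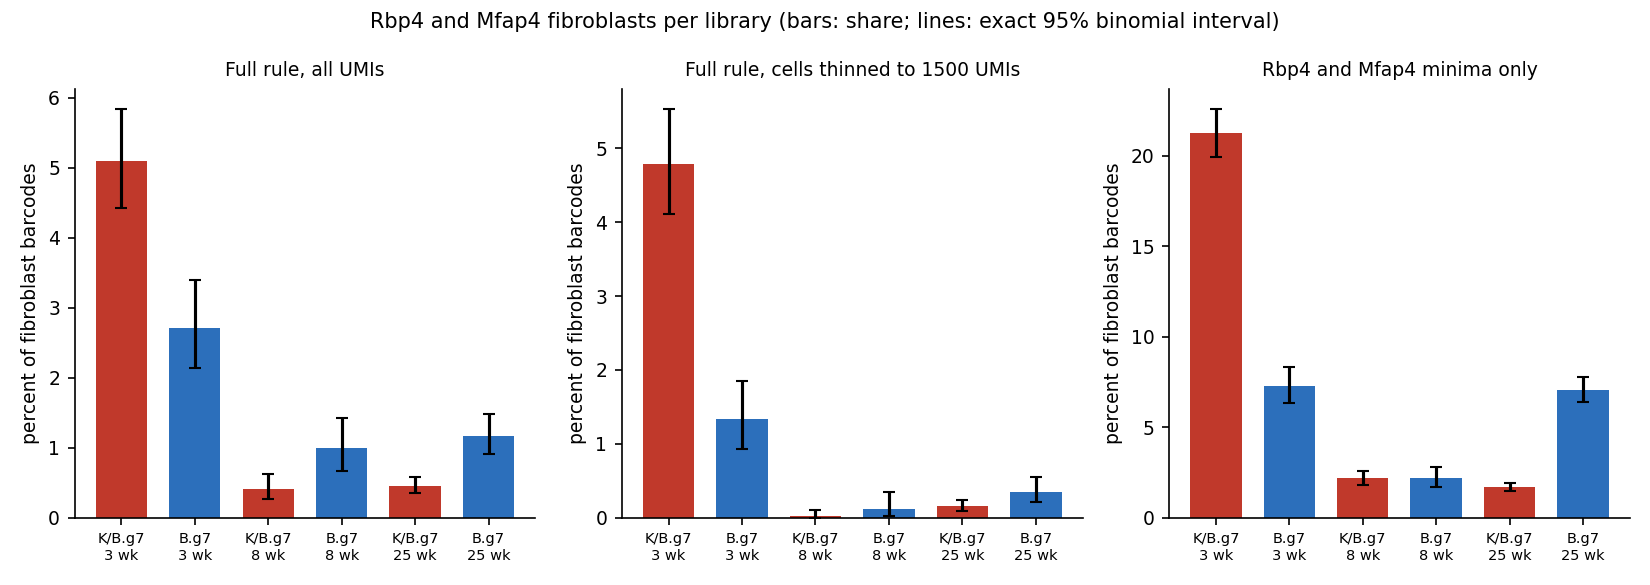
Share of fibroblast barcodes in each library that met the full rule, that met it after thinning to 1500 UMIs, and that met the Rbp4 and Mfap4 minima alone, with exact 95% binomial intervals; red is K/B.g7 and blue B.g7. The K/B.g7 library at 3 weeks stands highest in all 3 panels, at 5.10%, 4.78% and 21.2%.

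The 2 minima alone were met by 1854 fibroblasts, and 1399 of these were then set aside by an upper limit. Pi16, a marker of adventitial fibroblasts, removed most of them: 1150 of the 1854 cells (62.0%) had 3 or more Pi16 UMIs. The limit on Cilp, Thbs4 and Col8a1 removed 339 cells, Wif1 164, Igfbp3 93, Chad 60 and Mmp3 with Lcn2 27, and a cell could pass several limits. The minima alone were met by 21.2%, 2.18% and 1.71% of K/B.g7 fibroblasts at the 3 ages and by 7.28%, 2.20% and 7.06% of B.g7 fibroblasts. By the minima alone the genotypes were nearly level at 8 weeks, B.g7 at 25 weeks stood close to its 3-week value, and K/B.g7 was lowest at 25 instead of 8 weeks.

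Free RNA was read from immune cells. Among 1973 barcodes with a Ptprc UMI and under 1% fibroblast UMIs, which are immune cells that should lack both genes, 6 met both minima, all from adult K/B.g7. They were 3 of 622 at 8 weeks (0.482%, exact 95% binomial interval 0.0996 to 1.40%) and 3 of 519 at 25 weeks (0.578%, 0.119 to 1.68%). The fibroblast shares that met both minima there, 2.18% and 1.71%, lay above these intervals, at 25 weeks only just. The selected shares of 0.416% and 0.458% lay near the immune rates, but the upper limits were not applied to the immune barcodes. Immune barcodes with 1% or more fibroblast UMIs were also left out. In K/B.g7 the immune barcodes had median depths of 4157.5 UMIs at 8 weeks and 1483 at 25 weeks, against 4258.5 and 2989 in the other fibroblasts. The immune rates are therefore a measure unlike both the selected shares and the shares that met both minima. How many selected cells in adult K/B.g7 met the minima through free RNA was not tested. In the other 4 libraries 0 of 43 to 470 immune barcodes met both minima. The immune barcodes held 3.20 to 26.4 CPM (counts of a gene divided by all counts of the summed cells and scaled to 1e6) of Rbp4 and 0 to 218 CPM of Mfap4, with median depths of 1483 to 4157.5 UMIs.

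Of the 3 genes that mark the cells, Igf1 alone was left free by the rule and so bears on the label. Rbp4 stood at 1399, 569 and 1063 CPM in the selected cells of K/B.g7 at the 3 ages and at 1269, 568 and 655 CPM in those of B.g7, against 67.2 to 410.5 CPM in the other fibroblasts. Mfap4 stood at 4161, 2097 and 2532 CPM in K/B.g7 and at 2951, 2182 and 1994 CPM in B.g7. Both are fixed by the rule. Igf1, which the rule did not use, stood at 1336, 684 and 532 CPM in K/B.g7 and at 1289, 568 and 602 CPM in B.g7, against 990, 311 and 522 and 742, 342 and 429 CPM in the other fibroblasts. It was higher in the selected cells in 6 of 6 libraries, by a median of 0.62 on the log2 scale and by only 0.03 in K/B.g7 at 25 weeks, so it is a weak mark of these cells. The word postnatal describes the 3-week cells; 183 of the 455 cells came from adult valves.

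Igf1 at the edges of the rule is given as a description. Cells with exactly 2 Rbp4 UMIs, just inside, held 831 CPM of Igf1 (142 cells), and otherwise eligible cells with 1 Rbp4 UMI held 837 CPM (319 cells). Cells with exactly 5 Mfap4 UMIs held 827 CPM (50 cells) and those with 4 held 1072 CPM (52 cells). These values pool libraries in unequal parts, with K/B.g7 at 3 weeks giving 10 of the 50 cells and 16 of the 52. Within libraries Igf1 was higher just inside the Rbp4 limit in 4 of 6 and just inside the Mfap4 limit in 3 of 6.

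Markers of other cell types ranged from absent to levels above those of the other fibroblasts in the selected cells. The endothelial genes Cdh5 and Tie1, all 3 B cell and all 3 neutrophil markers were at 0 in all 6 libraries, and the summed macrophage markers reached at most 17.8 CPM. Pecam1 was at 0 by the rule. The 6 endothelial markers summed to 0 to 23.3 CPM, against 5.59 to 19.6 CPM in the other fibroblasts. The 6 mural and smooth muscle markers (Rgs5, Myh11, Cspg4, Kcnj8, Notch3 and Tagln) totalled 899, 107 and 755 CPM in K/B.g7 at the 3 ages and 184, 73.9 and 145 CPM in B.g7. The other fibroblasts held 142 to 453 CPM of them, and in the selected cells most of the sum was Tagln. Mesothelial markers stood at 191 CPM in B.g7 at 25 weeks, against 276 CPM in the other fibroblasts of that library. There 5 of 68 selected cells held all 51 UMIs of Upk3b. In the selected cells of the other libraries these markers stood at no more than 22.7 CPM. The 6 cardiomyocyte markers summed to 22.7 to 93.3 CPM, and at 25 weeks to 93.3 CPM in K/B.g7 and 91.0 CPM in B.g7, against 39.7 and 28.3 CPM in the other fibroblasts. In K/B.g7 at 25 weeks that sum was Tnnt2 alone. The 6 tenocyte and chondrocyte markers summed to 117 to 169 CPM, mostly Sox9, against 252.5 to 612 CPM in the other fibroblasts. Col2a1 was at 0 in the selected cells. Chad is among the 6 markers and was at 0 there by the rule. It gave 17.5 to 199.5 CPM of the sums in the other fibroblasts, so part of the gap is set by the rule.

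Other features of the libraries also differed along with age or genotype. Of the selected cells with UMIs of Xist, made from the inactive X, or of Y-linked genes, 19 had Xist alone and 0 had Y-linked UMIs alone in K/B.g7 at 8 weeks, and 27 and 1 in B.g7 at 8 weeks. The counts were 105 and 45 in K/B.g7 and 23 and 21 in B.g7 at 3 weeks, and 5 and 28 in K/B.g7 and 27 and 24 in B.g7 at 25 weeks. At 8 weeks Y-linked UMIs were thus found in almost none of the selected cells, and sex cannot be told apart from age there. At 25 weeks cells with Y-linked UMIs alone prevailed in K/B.g7 and not in B.g7. Sex therefore cannot be told apart from genotype at that age. Ribosomal protein genes took 10.8% and 12.6% of selected-cell UMIs at 3 weeks (K/B.g7 and B.g7), 18.1% and 18.2% at 8 weeks and 13.45% and 16.35% at 25 weeks. A doublet score marked 24 selected cells (5.27%) and 9.02% of the other fibroblasts. No barcode was shared between libraries among the selected cells, and 6 to 73 were shared by each of the 15 pairs of libraries over all barcodes.

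Compared with the other fibroblasts of the same library, the selected cells carried more Gdf10, Cpz, Ptch1, Tspan11 and Fgl2. Genes with a mean of at least 50 CPM over the libraries in either class numbered 2989. Of these, 5 (0.167%) were at least 2-fold higher in all 6 libraries and 8 (0.268%) at least 2-fold lower, with 0.5 UMIs as pseudocount. In any size, 134 (4.48%) were higher and 316 (10.6%) lower in all 6 libraries. These ratios describe cells that were chosen by expression, and no test was made of them.

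Gdf10, a growth factor of the TGF-beta family (chr14:33923587-33937983), stood at 105, 71.1 and 629 CPM in selected K/B.g7 cells at the 3 ages and at 147, 68.2 and 135 CPM in B.g7. The other fibroblasts held 7.34 to 33.0 CPM, a median ratio of 5.29-fold, and the K/B.g7 library at 25 weeks stood far above the rest. Cpz, a carboxypeptidase with a Wnt-binding domain, stood at 239, 8.88 and 56.0 CPM in K/B.g7 and 224, 39.8 and 70.0 CPM in B.g7, against 3.59 to 57.9 CPM in the other fibroblasts. Its median ratio was 5.21-fold, and within the selected cells it was highest at 3 weeks in both genotypes.

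Ptch1, the Hedgehog receptor and itself a target of that pathway, stood at 89.6, 53.3 and 196 CPM in K/B.g7 and 73.5, 28.4 and 30.3 CPM in B.g7, a median of 3.31-fold over the other fibroblasts. The tetraspanin Tspan11 was a median of 3.15-fold higher. Fgl2, a secreted and membrane-bound fibrinogen-like protein, stood at 638 to 990 CPM, a median of 2.46-fold higher. With 0.5 UMIs as pseudocount, all 5 genes lay between 1.01 and 4.26 on the log2 scale above the other fibroblasts in each library. The lowest, Tspan11 in K/B.g7 at 8 weeks, stood at 8.88 CPM against 6.60 CPM. By CPM alone it was under 2-fold higher there, so its 2-fold call rests on the pseudocount.

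The genes at least 2-fold lower in every library were Spp1 (osteopontin), Pla1a (a phospholipase), Cst6 (a cysteine protease inhibitor), Clu (clusterin, an extracellular chaperone), Ccnd1 (cyclin D1), Scara5 (a ferritin receptor) and the hemoglobin genes Hba-a1 and Hbb-bs. Cst6 stood at 4.07 to 17.8 CPM in the selected cells and 34.7 to 133 CPM in the other fibroblasts, a median of 7.09-fold lower. Clu stood at 0 to 93.3 CPM against 166 to 244 CPM, with no UMI in the 24 selected cells of K/B.g7 at 8 weeks. Spp1 stood at 0 to 17.3 CPM against 7.40 to 79.1 CPM. In B.g7 at 8 weeks Spp1 and Hba-a1 had no UMI in the selected cells, against 7.40 and 11.3 CPM in the other fibroblasts. The size of their ratios there rests on the pseudocount of 0.5 UMIs. Hemoglobin is a product of red cells.

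Among listed genes that did not reach 2-fold everywhere, the direction was shared by all 6 libraries for Cxcl12, the ligand of CXCR4 (median 1.46 on the log2 scale), the complement component C4b (1.15), the nuclear receptor Nr2f2 (1.10), the transcription factors Twist2 (1.07) and Osr1 (0.86), the proteoglycan Podn (1.06) and the matrix genes Col14a1 (0.68), Fbln1 (0.58) and Mfap2 (0.46). It was lower in all 6 for lubricin, Prg4 (-2.81), periostin, Postn (-2.11), the cross-linking enzyme Loxl2 (-1.30), the laminin chains Lamb1 (-1.26) and Lamc1 (-1.10), versican, Vcan (-1.19), and perlecan, Hspg2 (-1.02). Of the 12 basement membrane genes compared, from a list of 16, 7 were lower and 0 higher in all 6 libraries, with a median of -0.54 beside -0.07 over all genes compared.

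**Figure D2:**
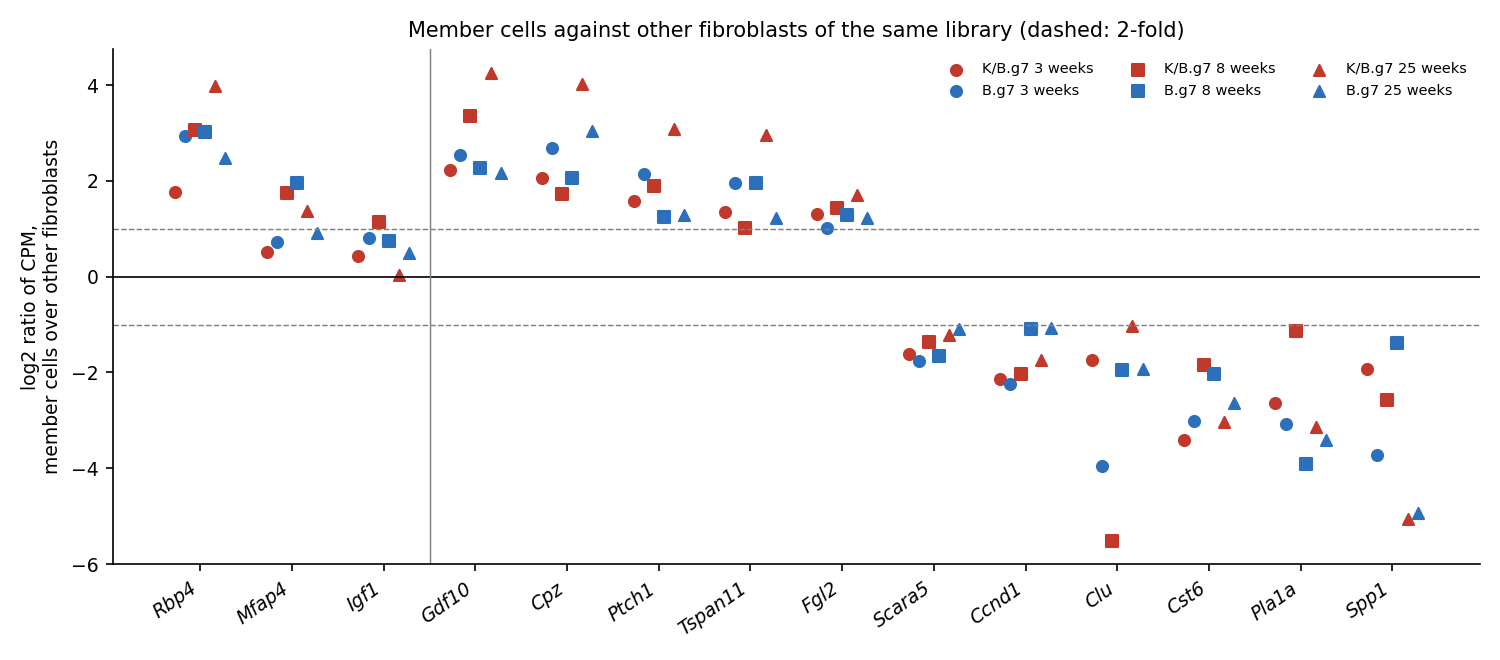
Log2 ratio of CPM in selected cells over CPM in the other fibroblasts of the same library, 1 point per library (red K/B.g7, blue B.g7; circle 3, square 8, triangle 25 weeks; dashed lines 2-fold). Rbp4 and Mfap4 are set by the rule, and Igf1 reaches 2-fold in 1 library. With 0.5 UMIs as pseudocount, the first 5 genes to the right of the vertical line lie above 1.01 in every library. The rest lie more than 2-fold lower.

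Few genes were 2-fold apart from the cells that the upper limits set aside. Against the 1399 fibroblasts that met both minima and exceeded a limit, 0 of 2913 genes were at least 2-fold higher in every library and 2 (0.0687%) lower, Prg4 (median -2.08) and Cst6 (-1.97). Gdf10 still had a median of 0.96 in that comparison and Tspan11 one of -0.16, beside 2.40 and 1.66 against all other fibroblasts.

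Within the selected cells more genes passed the test between ages than between genotypes. Between 3 and 8 weeks 75 of 4012 genes (1.87%) rose and 33 (0.823%) fell, 108 (2.69%) in all, by edgeR's quasi-likelihood test at an adjusted p under 0.05, with 2 libraries at each age, 1 of each genotype. Between 3 and 25 weeks 78 (1.94%) rose and 23 (0.573%) fell, 101 (2.52%) in all. Eln, Sparc, Col3a1, Stmn1 and Ube2c were among those that fell at both ages, and Mt1, C3, C4b, Igfbp6 and Inmt among those that rose. The 2 age comparisons share the 3-week libraries. The calls at 8 weeks rest on 53 cells, and 18 of the 75 rising genes at 8 weeks and 16 of the 78 at 25 weeks were ribosomal protein genes.

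Elastin, Eln (chr5:134702593-134747323), the core of the elastic fibre, stood at 4429, 222 and 396 CPM in K/B.g7 at the 3 ages and at 1442, 85.2 and 317 CPM in B.g7. Both 3-week libraries lay above all 4 adult libraries. It fell by 4.002 ± 0.42 on the log2 scale (fitted value ± standard error) from 3 to 8 weeks (adjusted p = 8.6e-06, edgeR) and by 2.67 ± 0.37 from 3 to 25 weeks (adjusted p = 0.00064). The other fibroblasts went from 1932 to 88.3 and 267 CPM in K/B.g7 and from 872 to 107 and 261 CPM in B.g7, and the difference of these effects between the classes did not pass the test.

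Sparc, a collagen-binding matrix glycoprotein (chr11:55394500-55423183), stood at 19639 CPM in K/B.g7 and 17524 CPM in B.g7 at 3 weeks. It stood at 2346 and 1352 CPM at 8 weeks and 5973 and 3664 CPM at 25 weeks, a fall of 3.17 ± 0.35 and of 1.85 ± 0.33 on the log2 scale (adjusted p = 1.3e-05 and 0.0034, edgeR). Col3a1, the chain of collagen III (chr1:45311538-45349706), went from 13688 and 16052 CPM at 3 weeks to 1635 and 1586 CPM at 8 weeks and 5302 and 3303 CPM at 25 weeks. In both genes the groups did not overlap and the lowest values were at 8 weeks. C1qtnf6, a secreted C1q-like protein, fell from 222 and 277 CPM to 35.5 and 17.0 CPM at 8 weeks and to 27.98 and 16.3 CPM at 25 weeks. It passed the filter on low counts only through the 3-week libraries, so a fall was the only change that could be called.

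Of 17 fibrillar collagen and collagen-processing genes tested from a list of 21, 4 fell from 3 to 8 weeks (Col3a1, Col5a1, Col6a3 and the collagen chaperone Serpinh1) and 0 rose. All 17 had a fitted change below 0, with a median of -1.23 beside 0.00 over all genes. From 3 to 25 weeks 1 fell (Col3a1), 1 of the 17 had a change above 0, and the median was -0.72. Of the 14 basement membrane genes tested of 16, 1 fell at each age (Sparc), with medians of -1.02 and -0.43.

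Of 19 elastic fibre and microfibril genes tested of 23, 4 fell from 3 to 8 weeks: Eln, the fibrillin Fbn1, the microfibril protein Mfap2 and the cross-linking enzyme Lox. Lox had 3 UMIs in the 53 cells at 8 weeks against 338 in the 272 cells at 3 weeks, which is 25.4-fold lower with an exact counting interval of 8.61 to 124. At 25 weeks Lox stood at 149 and 60.6 CPM in K/B.g7 and B.g7, against 310 and 114 CPM at 3 weeks, and did not pass the test. The fibulin Efemp1 was the 1 gene of the list that rose. It went from 7.13 and 16.7 CPM at 3 weeks to 71.1 and 96.6 CPM at 8 weeks and 37.3 and 135 CPM at 25 weeks. Efemp1 passed the filter on low counts only through adult libraries, so a rise was the only change that could be called for it. The list's median was -0.38 at 8 weeks and 0.32 at 25 weeks, when 2 of its genes fell (Eln and Mfap2).

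Of 6 proliferation genes tested from a list of 20, 3 fell at each age, Ube2c, Birc5 and the microtubule regulator Stmn1. These 3 passed the filter on low counts only through the 3-week libraries. A fall was therefore the only change that could be called for them, and they also enter the list's medians. The mitotic ubiquitin enzyme Ube2c stood at 92.7 and 93.5 CPM at 3 weeks (K/B.g7 and B.g7), at 0 in both 8-week libraries and at 0 and 2.33 CPM at 25 weeks. With a floor of 3 UMIs over the group, Ube2c was at least 8.93-fold lower at 8 weeks. With 1 UMI at 25 weeks it was 59.7-fold lower, with a counting interval of 10.5 to 2379. Birc5, the mitotic protein survivin, stood at 62.1 and 50.1 CPM at 3 weeks and at 0 in all 4 adult libraries, at least 5.70-fold lower at 8 and 12.7-fold lower at 25 weeks.

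The 3 others tested, Tyms, Hmgb2 and Tuba1b, did not pass, with Hmgb2 at 62.1 and 130 CPM at 3 weeks and 88.9 and 108 CPM at 8 weeks, and the remaining 14 were below the filter on low counts. Of those, the replication factor Pcna stood at 11.2 and 3.34 CPM at 3 weeks and 32.6 and 25.7 CPM at 25 weeks, and Mki67, at 0 in the adult libraries, was at least 2.33-fold lower at 8 weeks. The list's median was -1.97 at 8 weeks, or -1.69 with genes at 0 UMIs set to their bound, and -2.35 at 25 weeks. The 4 cycling markers summed to 144 and 150 CPM at 3 weeks in the selected cells and to 56.8 and 32.4 CPM in the other fibroblasts of those libraries. Cthrc1, a secreted protein of matrix-producing fibroblasts, stood at 80.5 and 40.1 CPM at 3 weeks and at 0 in every adult library, at least 6.83-fold and 15.2-fold lower. It also passed the filter only through the 3-week libraries.

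A pair of enzymes that interconvert active and inactive glucocorticoid moved in opposite directions between 3 and 25 weeks. Hsd11b2, which inactivates the hormone, stood at 55.0 and 114 CPM at 3 weeks, 0 and 0 at 8 weeks and 4.66 and 11.7 CPM at 25 weeks (K/B.g7 and B.g7), a fall of 3.14 ± 0.62 on the log2 scale from 3 to 25 weeks (adjusted p = 0.0069, edgeR). Hsd11b1, which regenerates it, stood at 29.5 and 3.34 CPM at 3 weeks and 182 and 27.99 CPM at 25 weeks, a rise of 2.67 ± 0.47 (adjusted p = 0.0032). At every age the K/B.g7 library held more Hsd11b1 than the B.g7 library. Hsd11b2 passed the filter on low counts only through the 3-week libraries, and Hsd11b1 only through adult K/B.g7 libraries.

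In the IGF axis, Igfbp6, a binding protein with a preference for IGF2, stood at 97.8 and 100 CPM at 3 weeks, 471 and 381 CPM at 8 weeks and 471 and 539 CPM at 25 weeks (K/B.g7 and B.g7). It rose by 2.31 ± 0.36 and 2.49 ± 0.36 on the log2 scale (adjusted p = 0.00075 and 0.00064, edgeR), and the 3-week libraries lay below all 4 adult ones. Igfbp5 went from 251 and 73.5 CPM to 415 and 658 CPM at 25 weeks, a rise of 1.94 ± 0.44 (adjusted p = 0.018). Igf1 itself was lower in both adult groups, by fitted values of -0.86 ± 0.33 at 8 and -1.06 ± 0.32 at 25 weeks, which did not pass the test (adjusted p = 0.19 and 0.092). Of 10 genes tested of the 17 in the list, 1 rose at 8 weeks and 2 at 25 weeks, and 0 fell. Over all genes tested 1.87% and 1.94% rose.

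The retinoid pathway, in which Rbp4 acts, had 7 genes tested of 25, and 0 rose or fell in either age comparison or between genotypes. The retinal dehydrogenase Aldh1a1 stood at 73.5 to 205 CPM and was lower than in the other fibroblasts in 5 of 6 libraries. Lrat, Rdh10, Aldh1a2 and the Crabp genes stayed under 30 CPM in every library.

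Of 9 complement genes tested from a list of 16, 3 rose at both adult ages, C3 and C4b among them. Over all genes tested 1.87% rose at 8 and 1.94% at 25 weeks. The list's median was 1.17 at 8 and 0.75 at 25 weeks, beside 0.00 over all genes. C3, the central component, went from 88.6 and 127 CPM at 3 weeks to 880 and 330 CPM at 8 weeks and 462 CPM in both genotypes at 25 weeks. C4b, which acts in the classical and lectin pathways, went from 127 and 137 CPM to 409 and 239 CPM at 8 weeks and 485 and 350 CPM at 25 weeks. For C3 and C4b no adult library overlapped with a 3-week library.

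The metallothionein Mt1, a metal-binding stress protein, rose from 1079 and 608 CPM to 3527 and 6797 CPM at 8 weeks and 3931 and 4721 CPM at 25 weeks, by 2.77 ± 0.40 and 2.46 ± 0.39 on the log2 scale (adjusted p = 0.00038 and 0.0016, edgeR). The methyltransferase Inmt rose from 19.4 and 53.4 CPM to 267 CPM in both 8-week libraries. The epicardial and fibroblast transcription factor Tcf21 rose from 199 and 234 CPM to 693 and 921 CPM at 8 weeks and 420 and 527 CPM at 25 weeks. Of 17 fibroblast transcription factors tested of 26, it was the 1 that rose at 8 weeks, and Nr2f2 joined it at 25 weeks. Nr2f2 stood at 476 CPM in K/B.g7 at 25 weeks and between 62.5 and 133 CPM in the other 5 libraries, so that rise rests on 1 library.

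Chemokine genes rose at 8 weeks in part. Ccl2, which recruits monocytes, stood at 231, 773 and 196 CPM in K/B.g7 at the 3 ages and 13.4, 483 and 30.3 CPM in B.g7, and Cxcl14 at 35.6, 124 and 37.3 CPM and 16.7, 182 and 56.0 CPM. Both rose from 3 to 8 weeks, as 2 of 11 genes tested of 23 in the chemokine and cytokine list, beside 1.87% of all genes tested. Few cells carried these UMIs: 5 cells held 98.9% of the 87 Ccl2 UMIs in K/B.g7 at 8 weeks, and 4 cells held all 85 in B.g7. Ccl19 rose at 25 weeks, to 275 and 145 CPM from 108 and 26.7 CPM. Cxcl14 passed the filter on low counts only through adult libraries.

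**Figure D3:**
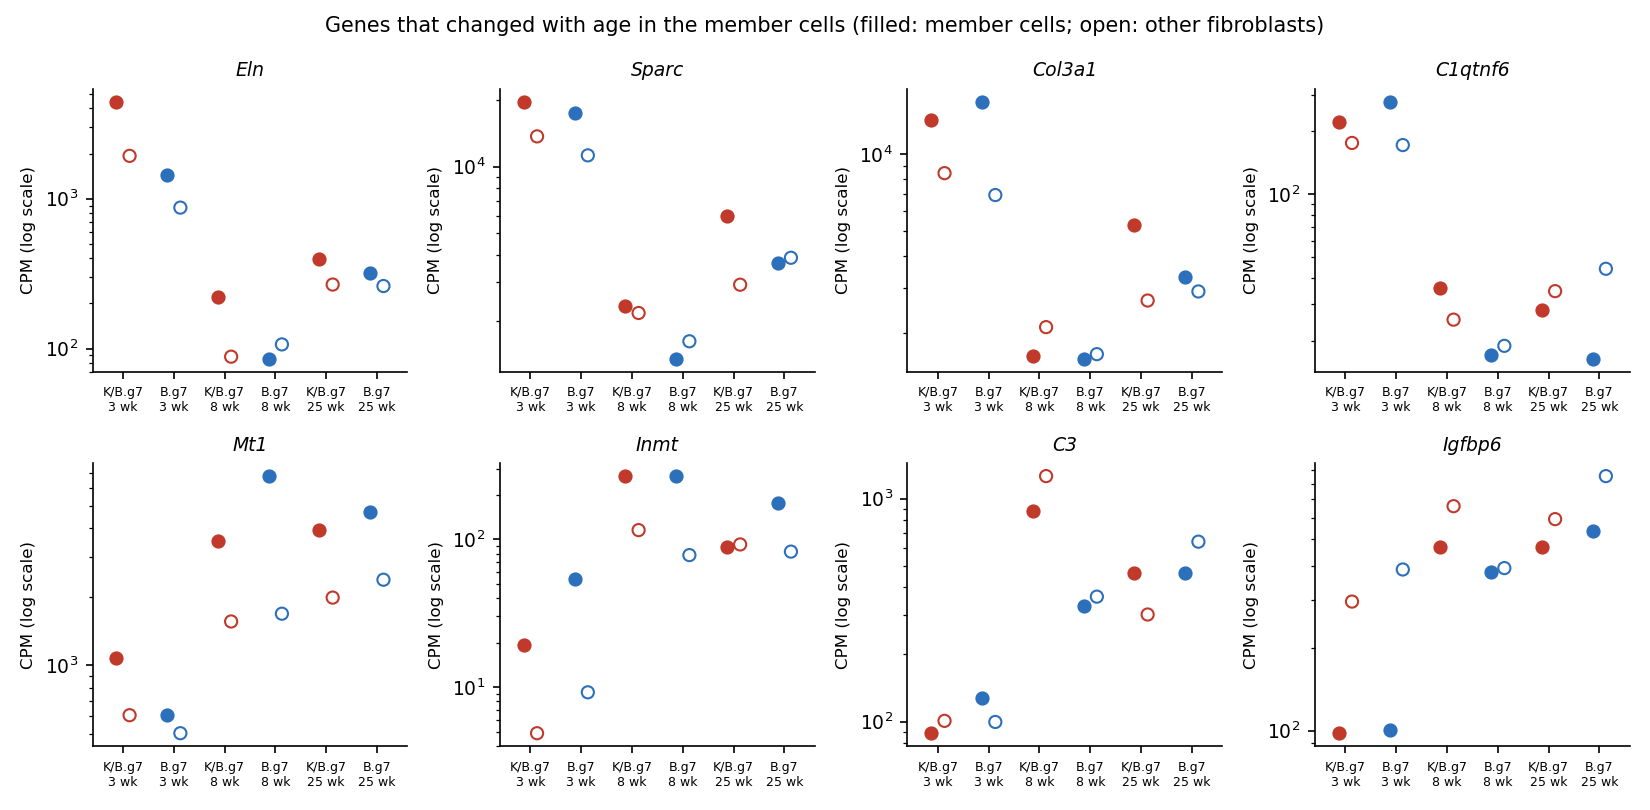
CPM on a log scale of 4 genes that fell and 4 that rose with age, in the selected cells (filled) and the other fibroblasts (open) of each library, red K/B.g7 and blue B.g7. Eln, Sparc, Col3a1 and C1qtnf6 are highest in the 3-week libraries in both classes, and Mt1, Inmt, C3 and Igfbp6 lowest.

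A test of the difference between the classes asked which age changes were of another size in the selected cells than in the other fibroblasts. In the fit of 12 sums, 24 of 12818 genes (0.187%) rose more and 19 (0.148%) less from 3 to 8 weeks in the selected cells, and 10 (0.078%) and 3 (0.0234%), 13 (0.101%) in all, from 3 to 25 weeks. DESeq2 called 0 genes in either comparison, with 209 and 101 genes at an unadjusted p under 0.05. The biological coefficient of variation was 0.234 in the fit of the selected cells alone and 0.116 in this one, which shares 1 spread between small sums of selected cells and large sums of other fibroblasts, so its standard errors may be too small for the selected cells.

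By that test the rise of Igfbp6 was larger in the selected cells by 1.48 ± 0.28 on the log2 scale at 8 weeks and 1.26 ± 0.26 at 25 weeks (adjusted p = 0.000196 and 0.00284, edgeR). The other fibroblasts already stood at 296 and 388 CPM of Igfbp6 at 3 weeks. Prg4 stood at 39.7 and 50.1 CPM in selected cells at 3 weeks and 107 to 387 CPM in the adult libraries, against 390 to 1423 CPM in the other fibroblasts, with differences of 1.60 ± 0.33 and 1.48 ± 0.30. Apod, a lipocalin carrier, went from 18.3 and 36.7 CPM to 80.0 and 330 CPM at 8 weeks in selected cells, with differences of 3.04 ± 0.38 and 2.31 ± 0.38. Within each genotype, the selected cells were furthest below the other fibroblasts at 3 weeks for all 3 genes.

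Postn, a matrix protein of developing valves, fell further in the selected cells, from 354 and 364 CPM at 3 weeks to 35.5 and 56.8 CPM at 8 weeks, while the other fibroblasts went from 599 and 660 to 332 and 389 CPM. The difference was -2.16 ± 0.38 at 8 weeks and -1.24 ± 0.28 at 25 weeks (adjusted p = 4.02e-05 and 0.0119, edgeR). Lox, with a difference of -2.66 ± 0.66 at 8 weeks, went the same way.

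The genotype comparison gave few calls, which changed with the libraries used. Its 25-week libraries also differed in Xist and Y-linked UMIs, so sex and genotype cannot be told apart there. With age as a block, 6 of 4012 genes (0.15%) were higher in K/B.g7 selected cells and 0 lower by edgeR's test, with 222 genes at an unadjusted p under 0.05. Among them were the smooth muscle and myofibroblast genes Acta2 and Tagln, the detoxifying enzyme Gstp1, Hsd11b1 and the laminin chain Lamc3. DESeq2 called 2 of them, Acta2 and Tagln. With the 25-week libraries left out 0 genes passed, with 109 at an unadjusted p under 0.05, and with the 3-week libraries left out 3 others passed, all with lower values in K/B.g7. When the 8-week libraries were dropped 32 passed, these 6 among them, and without age as a block 0 did, with 113 at an unadjusted p under 0.05.

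Acta2, smooth muscle actin (chr19:34241090-34255590), stood at 834, 35.5 and 601 CPM in K/B.g7 at the 3 ages and at 210, 17.0 and 39.7 CPM in B.g7. K/B.g7 was higher at each age, by 2.61 ± 0.41 on the log2 scale in the fit (adjusted p = 0.0084, edgeR). Tagln, a smooth muscle actin-binding protein, stood at 761, 71.1 and 555 CPM and at 127, 51.1 and 91.0 CPM, a difference of 2.17 ± 0.37 (adjusted p = 0.013). In the other fibroblasts K/B.g7 was also higher at each age for both genes. The genotype effect was higher in the selected cells than in the other fibroblasts for 13 of 12818 genes (0.101%) and lower for 6 (0.0468%) by edgeR's test, and for 0 by DESeq2 (113 at an unadjusted p under 0.05). It was higher by 1.33 ± 0.27 for Acta2 and 1.29 ± 0.26 for Tagln (adjusted p = 0.0012 and 0.00076, edgeR), with the same direction in 2 of 3 ages.

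Few cells carried much of this signal. In K/B.g7 at 3 weeks 108 of 197 selected cells had an Acta2 UMI, and 5 of them held 52.0% of the 819 UMIs. At 25 weeks 32 of 62 cells had one, and 5 held 65.9% of 129 UMIs, against 12 of 68 cells and 17 UMIs in B.g7. The smooth muscle myosin Myh11 moved with it, at 67.2, 0 and 121 CPM in K/B.g7 and 30.1, 0 and 2.33 CPM in B.g7, while the pericyte gene Rgs5 stood at 0 to 23.3 CPM. With all cells that had a UMI of Rgs5, Myh11, Cspg4, Kcnj8 or Notch3 left out, 147, 21 and 46 K/B.g7 and 69, 25 and 51 B.g7 cells remained. Then 0 genes passed by edgeR's test, with 152 at an unadjusted p under 0.05, and the fitted differences were 2.21 ± 0.43 for Acta2 and 2.01 ± 0.39 for Tagln (adjusted p = 0.154 for both). The part of mural RNA in the difference was not tested further.

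Gstp1 stood at 112, 213 and 256 CPM in K/B.g7 and 20.03, 85.2 and 74.6 CPM in B.g7, a difference of 1.75 ± 0.33 (adjusted p = 0.035, edgeR). The other fibroblasts stood at 103, 210 and 183 CPM and at 33.6, 72.7 and 67.3 CPM, close to the selected cells in each library. All 3 K/B.g7 libraries lay above all 3 of B.g7 for Gstp1. Hsd11b1 differed by 2.31 ± 0.46 (adjusted p = 0.044) and Lamc3 by 2.52 ± 0.51 (adjusted p = 0.044). Both passed the filter on low counts only through K/B.g7 libraries, so a higher value there was the only change that could be called. Lamc3 stood at 47.9, 0 and 177 CPM and at 13.4, 5.68 and 18.7 CPM, so it was not higher in K/B.g7 at 8 weeks.

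Of 8 myofibroblast genes tested of 13, 2 were higher in K/B.g7 (Acta2 and Tagln) and all 8 had a fitted value above 0, with a median of 0.70 beside -0.01 over all genes. The tropomyosin Tpm2 stood at 347, 124 and 196 CPM in K/B.g7 and 134, 85.2 and 79.3 CPM in B.g7, and did not pass (adjusted p = 0.25, edgeR). In the other 19 lists 0 genes passed in either direction, and the IGF axis, retinoid, collagen, elastic fibre, complement and MHC lists had medians between -0.23 and 0.20. Of 7 adipogenic and lipid genes tested of 15, 0 had a fitted value above 0, with a median of -0.71, and of 14 basement membrane genes 13 had one, with a median of 0.37. Ccl2 was the chemokine of smallest p, with a difference of 2.04 ± 0.44 that did not pass (adjusted p = 0.061).

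0 genes were lower in K/B.g7 past the threshold. By p-value the first 5 that kept 1 direction in every pair were Myoc, Cyp2e1, transferrin (Trf), Dpp7 and the valve transcription factor Tbx20, at adjusted p = 0.15 to 0.40 by edgeR. Tbx20 stood at 85.6, 195 and 140 CPM in K/B.g7 and at 147, 267 and 364 CPM in B.g7, a fitted difference of -0.95 ± 0.30. Myoc stood at 45.8, 17.8 and 18.7 CPM and at 56.8, 170 and 189 CPM.

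**Figure D4:**
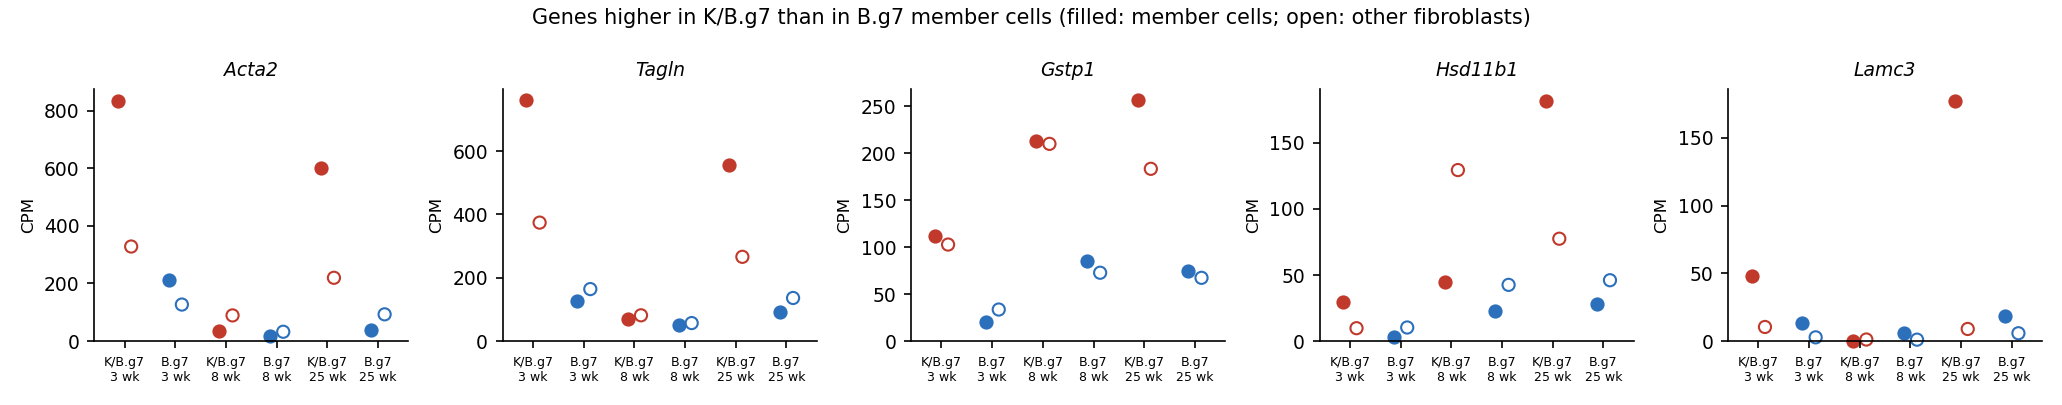
CPM of 5 genes higher in K/B.g7 than in B.g7 selected cells, for the selected cells (filled) and the other fibroblasts (open) of each library, red K/B.g7 and blue B.g7. For Gstp1 all 3 K/B.g7 libraries lie above all 3 of B.g7, and Acta2 and Tagln are high in K/B.g7 at 3 and 25 weeks.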

How the data were processed

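Valve cells were profiled with a 10x Genomics 3' kit, per the labels' protocols, and per the submitters' processing notes with Cell Ranger 3.1.0 and mm10; no source used here gives the annotation version. The authors deposited whole-number UMI counts per gene and barcode (31053 genes, 6 libraries, 15196750 to 69152541 UMIs, 58351 barcodes). The selected cells held 112552 to 981860 UMIs per library. The selection rule, the 20 gene lists and the tests were chosen with earlier results of these data known.

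For each library, UMIs of the selected cells were added up per gene, likewise those of the other fibroblasts, and fitted by the quasi-likelihood test of edgeR 4.0.16 in R 4.3.3 (TMM scaling, low counts removed by filterByExpr, Benjamini-Hochberg threshold 0.05), with genotype and age in 1 model, so age is the replicate block of the genotype test, leaving 2 residual degrees of freedom. Differences between classes were fitted over 12 sums with library and class terms. Standard errors are the fitted change over the square root of F. Libraries were paired by age alone. Deviations from the genotype mean correlated between the libraries of an age by 0.377, 0.177 and 0.108 at 3, 8 and 25 weeks. These deviations hold the age effect itself, so they show no pairing beyond age. DESeq2 1.42.0 was an alternative.

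Predicted doublets (Scrublet scores, scanpy 1.11.5, 0.8% per 1000 barcodes; the automatic threshold marked 0.116% and was not used) stayed in, and were left out as an alternative. The genes named were up to 10 per direction past the threshold by largest change, with 1 sign in all pairs and a mean of at least 20 CPM, or 5 of smallest p where none passed, and up to 4 per list; Lamc3, which lacks 1 sign in all pairs, and genes counted singly in a list were named after their values were seen. Ratios used 0.5 UMIs as pseudocount. On simulated counts the genotype fit recovered 20.8% of 2-fold and 91.8% of 4-fold changes (3702 genes), that of 8 against 3 weeks 8.60% and 55% (3733 genes), and that of 25 against 3 weeks 22.6% and 88% (3728 genes). Gene positions are from GENCODE M21 (mm10). Other settings tried are given at the end. Some genes are not reported here, though the counts of genes include them.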

Additional observations from a re-analysis of the deposited data

Results flagged for a closer look

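For the genes given here the effect of genotype or age differed between the selected cells and the other fibroblasts by edgeR's test of the difference itself, on the log2 scale, in the fit of 12 sums; DESeq2 passed 0 of them, and explanations were not tested. The genotype effect (K/B.g7 against B.g7) was higher in the selected cells for the taurine transporter Slc6a6 (1.95), Cpxm2 (1.66), Rrad (1.17), Cd200 (1.05) and Igfbp5 (1.0). It was lower for Tnfaip2 (-2.39), the complement component C7 (-2.06) and Cytl1 (-1.63). Slc6a6 stood at 102, 35.5 and 420 CPM in K/B.g7 and 63.4, 28.4 and 20.99 CPM in B.g7 selected cells, and Cd200, an immune checkpoint ligand, at 240, 124 and 695 CPM and 110, 90.9 and 86.3 CPM. Both were highest in the K/B.g7 library at 25 weeks, where sex cannot be told apart from genotype.

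The change from 3 to 8 weeks was higher in the selected cells for Tnfaip2 (3.49), Apod (3.04), Ccl2 (2.07), Fmod (1.83), Ythdc1 (1.68), Prg4 (1.60), Hk2 (1.55), Igfbp6 (1.48), Thbs1 (1.46) and Ifi27l2a (1.25). It was lower for Mustn1 (-3.06), Lars2 (-2.74), Lox (-2.66), Acta2 (-2.43), Postn (-2.16), C1s1 (-1.83), Ly6e (-1.81), Ccl19 (-1.78), Ndufa4l2 (-1.77) and Fmo2 (-1.55). Fmod, a collagen-binding proteoglycan, fell in the other fibroblasts, from 371 and 238 CPM to 84.9 and 121 CPM, and stood at 133 and 56.8, then 44.4 and 136 CPM in the selected cells.

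The change from 3 to 25 weeks was higher for Apod (2.31), Tnnt2 (2.17), Angptl7 (1.65), Prg4 (1.48), Igfbp6 (1.26), Igfbp5 (1.18) and Hspb1 (0.88), and lower for Cxcl14 (-2.18), Inmt (-1.65) and Postn (-1.24). Tnnt2, cardiac troponin T, stood at 93.3 and 51.3 CPM in the selected cells at 25 weeks and 16.7 and 13.1 CPM in the other fibroblasts. Tnnt2 is itself 1 of the 6 cardiomyocyte markers, which summed to 93.3 and 91.0 CPM in the same selected cells. In K/B.g7 it was the only 1 of them with a UMI. In B.g7 Myl7 and Tnni3 stood at 27.99 and 11.66 CPM. The part of cardiomyocyte RNA in this difference was not tested.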

How the results depend on the processing

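The number of genes with a genotype difference in the selected cells was 6, and it was 2 with DESeq2, 31 without a filter on low counts, 1 without predicted doublets, 0 without cells with mural UMIs (added after seeing the data) and 0 with no replicate block; leaving out 1 age gave 0 to 32. The pairing by age therefore matters to that result. From 3 to 8 weeks 108 genes passed, 70 with DESeq2 and 70 with no genotype term, and 50 to 228 with 1 library left out (50 without B.g7 at 8 weeks, 211 and 228 without K/B.g7 or B.g7 at 25 weeks). From 3 to 25 weeks 101 passed, 47 with DESeq2, 48 with no genotype term, 67 without mural UMIs, and 46 to 195 with 1 library left out (46 and 49 without K/B.g7 at 3 or 25 weeks, 195 without B.g7 at 25 weeks). The 3 differences between classes (19, 43 and 13 genes) were each 0 with DESeq2. No named gene reversed in these tests under the settings run. With a lone library in a group, that library is assumed to vary like the others.

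Shares at K/B.g7 3, 8 and 25 weeks, then B.g7, were 3.54%, 0.0867%, 0.140%, 1.23%, 0.275% and 0.498% with at least 3 Rbp4 and 8 Mfap4 UMIs, 21.2%, 2.18%, 1.71%, 7.28%, 2.20% and 7.06% without upper limits, and at 1500 UMIs 0.0187% and 0.157% in adult K/B.g7 and 1.33%, 0.121% and 0.354% in B.g7. With 2% of UMIs from Dcn, Col1a1 and Col1a2 the K/B.g7 shares were 6.34%, 0.216% and 0.666%, and that of B.g7 at 3 weeks was 4.22%. The 13 genes 2-fold apart from other fibroblasts in every library became 2 against fibroblasts with both Rbp4 and Mfap4 UMIs, 2 against cells over a limit (added after seeing the data, where Tspan11 reversed to -0.16), and 34 at 1.5-fold. Groups of 24 to 29 cells at 8 weeks limit what could be seen there.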

Other observations

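Of 4 genes tested from the list of 20 interferon-stimulated genes, 1 rose from 3 to 8 weeks in the selected cells, beside 1.87% of all genes tested. Ifi27l2a, an interferon-inducible mitochondrial protein, went from 44.8 and 83.5 CPM (K/B.g7 and B.g7) to 1004 and 335 CPM at 8 weeks and 261 and 250 CPM at 25 weeks, a rise of 3.58 ± 0.47 on the log2 scale at 8 weeks by edgeR's test (adjusted p = 0.000116). In the p200 family of nucleic acid sensors, named after the values were seen and with no test of the group, Ifi207 rose from 10.2 and 33.4 to 107 and 142 CPM and Mndal from 17.3 and 23.4 to 97.7 and 102 CPM. Both passed the filter on low counts only through adult libraries, so a rise was the only change that could be called for them. Ifi203, Ifi204, Ifi207, Ifi211 and Mndal are similar neighbouring genes, so reads may be split between them. The MHC class I genes H2-D1 and B2m also rose at 8 weeks, 2 of 5 tested in the MHC list. The other fibroblasts held more Ifi27l2a, at 1787 and 896 CPM at 8 weeks.

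A few transcripts came from very few selected cells. Tcap, a sarcomere gene, had 64 UMIs in K/B.g7 at 25 weeks, 95.3% of them in 5 of 62 cells, and 298 CPM there against 0 to 28.5 CPM in the other 5 libraries. The clock genes Nr1d1 and Dbp rose from 3 to 8 weeks, Nr1d1 from 40.7 and 30.1 to 107 and 114 CPM and Dbp from 107 and 70.1 to 373 and 125 CPM, and the labels do not give the hour at which valves were taken.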
